A study of Mus musculus with 8 samples.

Results

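The 37 genes described here mark macrophages, antigen-presenting cells, lymphocytes and mast cells, and they were read in the brown fat of mice with or without Cre-driven targeting of Adcy3, a membrane adenylyl cyclase, in adipocytes. They were taken by symbol from the 54385 gene rows of the count table, and all 37 were found. Each of the 8 libraries was made from total RNA of interscapular brown fat (the study's design text says inguinal) from C57BL/6N mice aged 20 weeks and kept on chow. The cKO group (4 libraries, genotype entry Adcy3-FL/FL/Adipoq-wt/cre) carries floxed Adcy3 alleles and Cre under the promoter of the adiponectin gene. The WT group (4 libraries) carries the same floxed alleles, with the entry Adcy3-FL/FL/Adipoq-wt/wt in WT replicates 1 to 3. WT replicate 4 is titled as a control while its genotype entry carries the Cre, and it was kept with the controls. The adiponectin promoter acts in adipocytes, so the immune cells in the tissue are not the cells in which this Cre is driven.

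Brown fat holds resident macrophages along its vessels and nerves and between its adipocytes. They clear dying cells and lipid, take up iron and debris through scavenger receptors, secrete complement C1q, and present peptides to T cells on class II molecules of the major histocompatibility complex (MHC). Macrophages drawn in by damage or obesity carry more CD11c, TREM2 and GPNMB, whereas perivascular resident macrophages are known for CD163, LYVE1, FOLR2 and the mannose receptor.

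The libraries held 10713043 to 16243318 estimated counts in cKO and 12977094 to 32437214 in WT. With counts scaled by TMM to a common library total (CPM, the unit of level throughout), Adcy3 stood at 17.95, 20.9, 25.3 and 21.5 CPM in cKO replicates 1 to 4, against 112, 118, 61.7 and 118 CPM in WT replicates 1 to 4, so each cKO library was below each WT library, WT replicate 4 included. The tissue label was checked against brown fat markers: Ucp1 ran from 2341 to 4545 CPM in cKO and from 2233 to 3012 CPM in WT, and Cidea from 1064 to 1606 CPM in cKO and from 1234 to 1701 CPM in WT.

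No immune transcript passed the test between cKO and WT. Of the 37 genes, 32 passed the count filter and were tested, and edgeR's quasi-likelihood test with Benjamini-Hochberg adjustment over 14553 genes called 0 of them (the smallest adjusted p was 0.882), against 0.0687% of all genes tested. DESeq2 and limma-voom also called 0. At an unadjusted p under 0.05 there were 2 of 32, or 6.25%, against 5.6% of all genes, so this share is near the background. Both, Lyve1 and Folr2, were higher in cKO, a direction in which 2.15% of all genes had such a p. The values of cKO and WT overlapped for all 32, whereas they did not for 3.5% of all genes. The 32 log2 fold changes (cKO over WT) ran from -0.53 to 0.79, 14 positive and 18 negative, with a median of -0.06 beside 0.01 over all genes. The 95% interval lay within a 2-fold change in both directions for 19 of the 32, so for the other 13 a 2-fold change is not outside what these libraries allow.

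**Figure D1:**
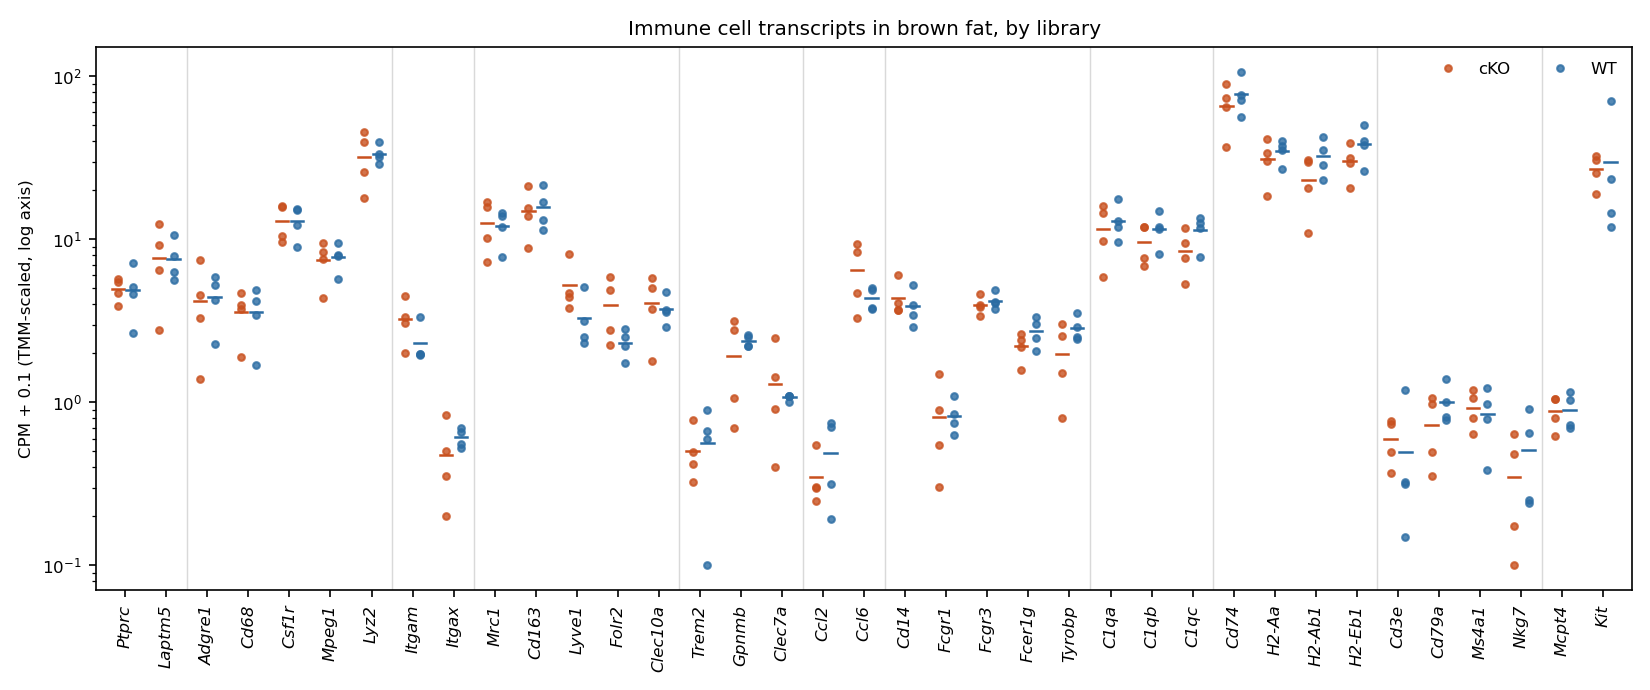
Level of each of the 37 immune genes in each library, as TMM-scaled CPM plus 0.1 on a log axis, with genes ordered by role; points are libraries (4 cKO and 4 WT), and bars are group means. Cd74 is the highest gene in both groups, and the points of cKO and WT overlap for every gene that was tested.

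Summed, the 37 genes reached 440.0, 221, 414 and 314 in cKO replicates 1 to 4, against 427, 379, 462 and 283 in WT replicates 1 to 4 (CPM). The sum averaged 347 ± 99.97 in cKO and 388 ± 77.9 in WT (CPM, SD, n = 4 each). Its range within either group exceeds the distance between the group means. Without Kit, which alone gave 69.9 CPM in WT replicate 1, the sum averaged 321 ± 103 in cKO and 358 ± 70.1 in WT. WT replicate 1 then stood at 357 CPM. The genes made up 0.0207% to 0.0432% of all counts in cKO and 0.0289% to 0.0505% in WT. In whole tissue, fewer immune cells and less RNA per immune cell cannot be told apart. Levels were compared between genes per kilobase of exon. Cd74 came first with 39.2 CPM per kilobase in cKO and 46.3 in WT, followed by Lyz2 with 24.3 CPM per kilobase in cKO and 25.3 in WT and H2-Eb1 with 15.4 CPM per kilobase in cKO and 19.8 in WT. The same 3 genes led in both groups. At the lower end stood Trem2 with 0.0817 CPM per kilobase in cKO and 0.0942 in WT, and Itgax with 0.0782 CPM per kilobase in cKO and 0.106 in WT.

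The general white blood cell genes differed little between groups. Ptprc, which encodes the CD45 phosphatase of all nucleated blood cells, stood at 5.62, 3.79, 5.39 and 4.602 CPM in cKO replicates 1 to 4, against 7.03, 4.501, 5.02 and 2.57 CPM in WT replicates 1 to 4 (log2 fold change 0.01 ± 0.28 (SE), 95% interval -0.59 to 0.61, edgeR adjusted p = 0.996). Laptm5, a lysosomal membrane protein of blood cells, stood at 12.3, 2.696, 9.08 and 6.38 CPM in cKO replicates 1 to 4, against 6.22, 7.79, 10.6 and 5.51 CPM in WT replicates 1 to 4 (log2 fold change 0.03, 95% interval -0.89 to 0.95). For both genes the extremes of 1 group enclosed all of the other: WT spanned cKO for Ptprc, and cKO spanned WT for Laptm5.

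Of the macrophage identity genes 5 of 5 were tested, and the log2 fold change was positive for 2 and negative for 3, with a median of -0.05. Lyz2, which encodes the lysozyme of macrophages, was the most abundant of them, at 45.2, 17.9, 39.3 and 25.6 CPM in cKO replicates 1 to 4, against 31.97, 33.1, 39.4 and 28.8 CPM in WT replicates 1 to 4 (log2 fold change -0.05 ± 0.26 (SE), 95% interval -0.65 to 0.54, edgeR adjusted p = 0.988). The cKO libraries were both the highest and the lowest. Csf1r, the receptor for the growth factor on which macrophages depend, stood at 15.9, 9.49, 15.6 and 10.3 CPM in cKO replicates 1 to 4, against 12.2, 15.1, 14.9 and 8.91 CPM in WT replicates 1 to 4 (log2 fold change 0.01 ± 0.21 (SE), 95% interval -0.46 to 0.47, edgeR adjusted p = 0.996), and both groups covered nearly the same range. Adgre1, the gene of the F4/80 antigen used to sort mouse macrophages, stood at 7.38, 1.298, 3.17 and 4.45 CPM in cKO replicates 1 to 4, against 5.16, 5.79, 4.17 and 2.19 CPM in WT replicates 1 to 4 (log2 fold change -0.08, 95% interval -1.12 to 0.96). Its lowest cKO library lay 5.69-fold under the highest, against 2.64-fold between the extremes in WT. Mpeg1, which encodes the pore-forming protein perforin-2, averaged 7.33 ± 2.17 CPM in cKO and 7.67 ± 1.55 CPM in WT, and Cd68, a lysosomal glycoprotein, averaged 3.48 ± 1.19 CPM in cKO and 3.46 ± 1.38 CPM in WT (SD, n = 4 each). Csf1r lies against Hmgxb3 on the opposite strand. It shares 14.9% of its 31-base sequences with other genes, the largest share with Hmgxb3. Lyz2 shares 32.8% with other genes, the largest share with Lyz1.

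Resident macrophage receptors held the 2 genes with the smallest unadjusted p. Folr2, a folate receptor of resident macrophages, stood at 5.76, 2.696, 4.76 and 2.15 CPM in cKO replicates 1 to 4, against 2.11, 1.64, 2.43 and 2.72 CPM in WT replicates 1 to 4 (log2 fold change 0.79 ± 0.33 (SE), 95% interval 0.09 to 1.501, edgeR adjusted p = 0.882, unadjusted p = 0.0309). The cKO libraries 1 and 3 were above all WT libraries and cKO libraries 2 and 4 lay within the WT range. Folr2 (chromosome 7, 101839988 to 101857194, minus strand, GRCm38) shares 56.9% of its 31-base sequences with other genes, the largest share with Gm10602 on the opposite strand. Gm10602 stood at 2.64 ± 1.01 CPM in cKO and 2.95 ± 0.289 CPM in WT. With the counts of such neighbours and copies summed into each gene, Folr2 had a log2 fold change of 0.33 with an unadjusted p of 0.104 (edgeR adjusted p = 0.890). Without cKO replicate 1 it was 0.54 (unadjusted p = 0.124).

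Lyve1, a hyaluronan receptor of resident macrophages and of lymphatic endothelium, stood at 4.34, 4.59, 7.997 and 3.71 CPM in cKO replicates 1 to 4, against 3.05, 2.21, 2.43 and 4.98 CPM in WT replicates 1 to 4 (log2 fold change 0.71 ± 0.31 (SE), 95% interval 0.04 to 1.39, edgeR adjusted p = 0.884, unadjusted p = 0.0407). WT replicate 4 was above 3 of the 4 cKO libraries. Without cKO replicate 3 the log2 fold change was 0.42 (unadjusted p = 0.196), and without WT replicate 4 it was 1.01 (unadjusted p = 0.00589, edgeR adjusted p = 0.783). The other 3 receptors of these cells had log2 fold changes nearer to 0. Cd163, the scavenger receptor for haemoglobin bound to haptoglobin, stood at 15.5, 8.69, 21.1 and 13.7 CPM in cKO replicates 1 to 4, against 21.4, 16.8, 11.4 and 13.1 CPM in WT replicates 1 to 4 (log2 fold change -0.08 ± 0.27 (SE), 95% interval -0.69 to 0.52, edgeR adjusted p = 0.981). Mrc1, the mannose receptor, stood at 15.8, 7.19, 16.8 and 10.1 CPM in cKO replicates 1 to 4, against 13.8, 11.8, 14.4 and 7.7 CPM in WT replicates 1 to 4 (log2 fold change 0.07, 95% interval -0.56 to 0.69). Clec10a, a galactose-type lectin, averaged 3.99 ± 1.75 CPM in cKO and 3.63 ± 0.759 CPM in WT (SD, n = 4 each, log2 fold change 0.14). For all 3 the cKO and WT ranges covered each other largely.

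**Figure D2:**
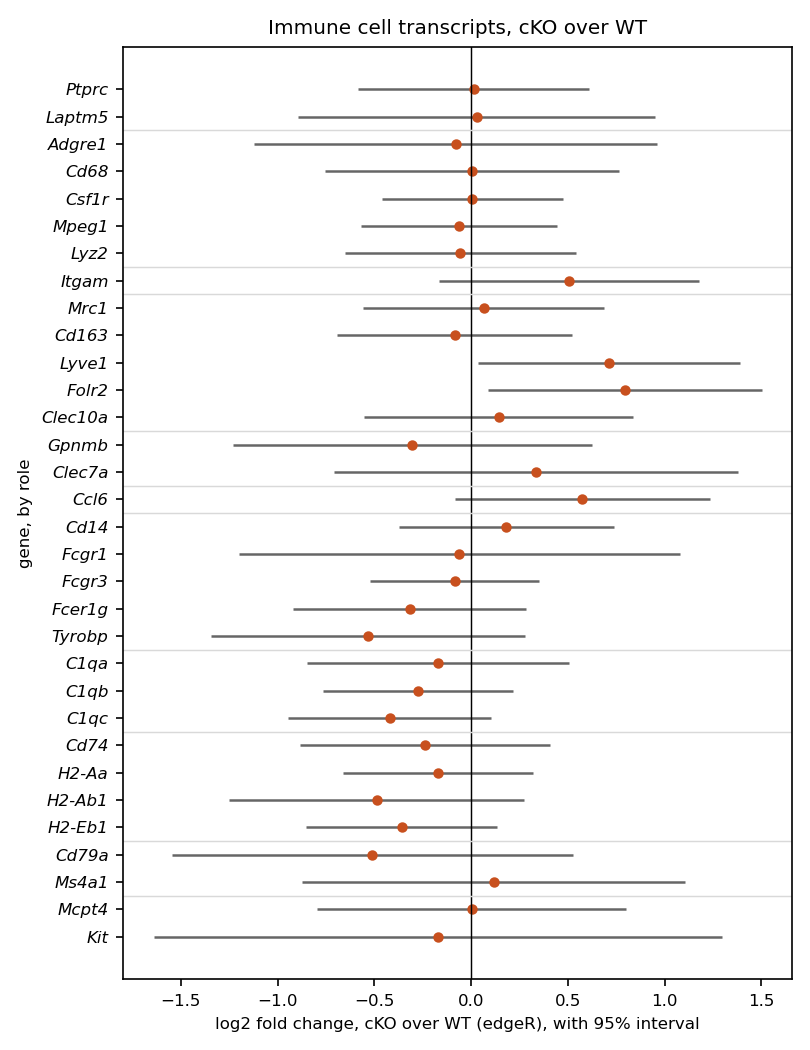
Log2 fold change of the 32 tested immune genes, cKO over WT (points, edgeR), with 95% intervals (lines), ordered by role. The intervals of Lyve1 and Folr2 lie above 0 before adjustment, and those of the 30 other genes cross 0.

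Genes tied to recruited or lipid-handling macrophages were low in both groups. Itgax, the CD11c integrin chain, was not tested, with 21 counts in all in cKO and 42 in WT. Trem2, the lipid-sensing receptor, was not tested either, with 22 counts in all in cKO and 40 in WT, and the 0 counts in WT replicate 4 allow up to 0.2265 CPM (3 counts, counting error only). Gpnmb, a transmembrane glycoprotein of lipid-laden macrophages, stood at 3.05, 0.599, 2.67 and 0.965 CPM in cKO replicates 1 to 4, against 2.11, 2.501, 2.43 and 2.11 CPM in WT replicates 1 to 4 (log2 fold change -0.30 ± 0.43 (SE), 95% interval -1.23 to 0.62, edgeR adjusted p = 0.954). WT libraries lay close together, whereas cKO libraries fell on both sides of them. The log2 fold change of Gpnmb was -0.65 without cKO replicate 1 and -0.03 without cKO replicate 2. Clec7a, the beta-glucan receptor dectin-1, showed the same picture, with 2.37, 0.2996, 1.33 and 0.816 CPM in cKO replicates 1 to 4, against 0.995, 1, 0.993 and 0.906 CPM in WT replicates 1 to 4 (log2 fold change 0.34, 95% interval -0.71 to 1.38). Its highest cKO library stood 7.92-fold above its lowest, the widest ratio of the 32 genes, against 1.104-fold in WT. That lowest value, in cKO replicate 2, rests on 3 counts. Clec7a had 70 counts in all in cKO and 78 in WT, so counting error bears on both ratios. The log2 fold change of Clec7a was -0.20 without cKO replicate 1 and 0.63 without cKO replicate 2. The annotation used here classes Clec7a as a polymorphic pseudogene. Itgam, the CD11b integrin chain, stood at 4.404, 1.897, 3.24 and 2.97 CPM in cKO replicates 1 to 4, against 1.87, 1.86, 3.23 and 1.89 CPM in WT replicates 1 to 4 (log2 fold change 0.50 ± 0.31 (SE), 95% interval -0.17 to 1.18, edgeR adjusted p = 0.894). WT replicates 1, 2 and 4 lay below every cKO library, but only just under the lowest, cKO replicate 2. WT replicate 3 lay within the cKO range. With 1 library left out, the log2 fold change of Itgam ran from 0.30 (without cKO replicate 1, unadjusted p = 0.359) to 0.75 (without WT replicate 3, unadjusted p = 0.0355, edgeR adjusted p = 0.999). Itgam shares 68.3% of its 31-base sequences with other genes, the largest share with Gm49368 on the same strand. With the counts of such genes summed into it, its log2 fold change was 0.49 (edgeR unadjusted p = 0.134).

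Of the 2 chemokines, Ccl2, which draws monocytes out of the blood, was not tested, with 14 counts in all in cKO and 27 in WT. Ccl6, a chemokine of resting macrophages in mice, stood at 9.28, 3.196, 8.31 and 4.602 CPM in cKO replicates 1 to 4, against 4.91, 3.72, 4.82 and 3.62 CPM in WT replicates 1 to 4 (log2 fold change 0.57 ± 0.30 (SE), 95% interval -0.09 to 1.23, edgeR adjusted p = 0.8898). The cKO libraries 1 and 3 were above all WT libraries, and cKO replicate 2 was below them all. Without cKO replicate 1 the log2 fold change of Ccl6 was 0.34, and without cKO replicate 2 it was 0.79.

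Fc receptors, the lipopolysaccharide co-receptor and the signalling adaptors had a positive log2 fold change in 1 of 5 and a negative one in 4, and their median was -0.09. Cd14, the lipopolysaccharide co-receptor, stood at 3.59, 3.99, 5.97 and 3.56 CPM in cKO replicates 1 to 4, against 3.33, 5.14, 3.87 and 2.79 CPM in WT replicates 1 to 4 (log2 fold change 0.18, 95% interval -0.37 to 0.74). Fcgr3, a low-affinity receptor for immunoglobulin G, stood at 4.54, 3.295, 3.74 and 3.86 CPM in cKO replicates 1 to 4, against 3.95, 4.001, 4.82 and 3.62 CPM in WT replicates 1 to 4 (log2 fold change -0.09, 95% interval -0.52 to 0.35). It was the steadiest of the 32 genes, with 1.46-fold between the highest and the lowest of the 8 libraries. Tyrobp encodes DAP12, the adaptor through which TREM2 signals, and had the lowest log2 fold change of the set. It stood at 2.44, 0.699, 2.92 and 1.41 CPM in cKO replicates 1 to 4, against 2.36, 2.79, 3.43 and 2.42 CPM in WT replicates 1 to 4 (log2 fold change -0.53 ± 0.37 (SE), 95% interval -1.34 to 0.28, edgeR adjusted p = 0.901), with cKO replicate 3 within the WT range, cKO replicate 1 just within it, and the other 2 cKO libraries below it. Fcer1g, the common gamma chain of activating Fc receptors, averaged 2.11 ± 0.452 CPM in cKO and 2.63 ± 0.562 CPM in WT (SD, n = 4 each, log2 fold change -0.32). Fcgr1, the high-affinity receptor, averaged 0.711 ± 0.518 CPM in cKO and 0.728 ± 0.199 CPM in WT and rested on only 39 counts in all in cKO and 63 in WT.

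The 3 chains of complement C1q assemble in equal number into the recognition molecule of the classical pathway. All 3 had negative log2 fold changes (median -0.27), and edgeR, DESeq2 and limma-voom called 0. None had an unadjusted p under 0.05 in the edgeR fit with the count filter and all libraries as labelled. C1qc had such a p in edgeR with no filter, without WT replicate 4 and without cKO replicate 1. With WT replicate 4 moved to cKO, both C1qb and C1qc had one, and neither was called in these fits. The log2 fold change of C1qa turned to 0.04 without cKO replicate 2 and to 0.02 without WT replicate 3. C1qa stood at 14.4, 5.79, 15.99 and 9.65 CPM in cKO replicates 1 to 4, against 12.9, 11.7, 17.6 and 9.51 CPM in WT replicates 1 to 4 (log2 fold change -0.17 ± 0.30 (SE), 95% interval -0.85 to 0.51, edgeR adjusted p = 0.967). C1qb stood at 11.8, 6.79, 11.7 and 7.57 CPM in cKO replicates 1 to 4, against 11.4, 11.7, 14.8 and 8.002 CPM in WT replicates 1 to 4 (log2 fold change -0.27 ± 0.23 (SE), 95% interval -0.76 to 0.22, edgeR adjusted p = 0.901). C1qc stood at 11.7, 5.19, 9.33 and 7.57 CPM in cKO replicates 1 to 4, against 11.7, 13.4, 12.6 and 7.7 CPM in WT replicates 1 to 4 (log2 fold change -0.42 ± 0.24 (SE), 95% interval -0.95 to 0.10, edgeR adjusted p = 0.8899). In each of the 3 the lowest library was cKO replicate 2, and the highest was a WT library. C1qa was at 11.01 CPM per kilobase in cKO and 12.4 in WT, and C1qb at 8.71 CPM per kilobase in cKO and 10.6 in WT. C1qc was at 4.37 CPM per kilobase in cKO and 5.87 in WT, the lowest of the 3 in both groups. The exon length used was 1931 bases for C1qc, against 1040 for C1qa and 1088 for C1qb. Before division by length, C1qc and C1qb averaged 8.44 and 9.47 CPM in cKO, and 11.3 and 11.5 CPM in WT. The genes lie side by side on chromosome 4 from 136880129 to 136898803 on the minus strand (GRCm38). The RefSeq promoter windows (GRCm38.p6, 250 bases before to 50 after the start site, 300 in all) are shown for C1qb and C1qc. C1qa has no window and was not searched. The purine-rich motif GAGGAA (written TTCCTC on the other strand) is in capitals, a sequence of the kind bound by the myeloid ETS factor PU.1.
C1qb, chr4:136886151-136886450, minus strand: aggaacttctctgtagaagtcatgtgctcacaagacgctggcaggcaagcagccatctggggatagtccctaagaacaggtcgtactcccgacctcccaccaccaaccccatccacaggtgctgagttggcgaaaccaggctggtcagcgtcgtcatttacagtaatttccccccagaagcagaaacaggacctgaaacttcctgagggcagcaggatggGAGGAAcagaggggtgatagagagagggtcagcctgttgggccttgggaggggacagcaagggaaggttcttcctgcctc
C1qc, chr4:136892865-136893164, minus strand: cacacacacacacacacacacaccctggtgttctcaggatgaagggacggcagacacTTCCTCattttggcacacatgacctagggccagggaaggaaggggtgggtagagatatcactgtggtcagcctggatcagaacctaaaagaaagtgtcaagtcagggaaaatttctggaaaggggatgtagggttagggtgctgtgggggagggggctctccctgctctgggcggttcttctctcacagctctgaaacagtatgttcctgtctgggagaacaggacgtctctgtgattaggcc
The motif starts 30 bases before the start site in C1qb and 193 bases before it in C1qc, on the other strand there. It occurs in the windows of 14 of the 26 immune genes that have one (53.8%) and in 28.3% of all 32851 windows. The first share counts genes and the second counts windows. Counted by window, the motif is in 17 of the 31 windows of these 26 genes. A match is a description and does not show binding.

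The MHC class II genes took the largest share of the summed CPM of the 37 genes in every library (39.1% to 45.8% in cKO and 40.5% to 51.7% in WT). The log2 fold changes of all 4 were negative (median -0.30), with 0 called by edgeR, DESeq2 or limma-voom. None had an unadjusted p under 0.05 in the edgeR fit with the count filter and all libraries as labelled. H2-Eb1 had such a p in edgeR with no filter, without WT replicate 4 and without cKO replicate 1. It also had one with WT replicate 4 moved to cKO, and was called in none of these fits. The log2 fold change of H2-Aa turned to 0.01 without cKO replicate 2. Cd74, the invariant chain that guides class II molecules to the endosome, stood at 88.96, 36.8, 73.4 and 64.3 CPM in cKO replicates 1 to 4, against 71.5, 76.8, 107 and 56.1 CPM in WT replicates 1 to 4 (log2 fold change -0.24 ± 0.28 (SE), 95% interval -0.88 to 0.41, edgeR adjusted p = 0.942). H2-Aa, the I-A alpha chain, stood at 41.2, 18.3, 33.8 and 29.99 CPM in cKO replicates 1 to 4, against 35.2, 37.1, 39.9 and 26.95 CPM in WT replicates 1 to 4 (log2 fold change -0.17, 95% interval -0.66 to 0.32). For both of these genes cKO replicate 2 was the lowest and cKO replicate 1 the highest within cKO. H2-Ab1, the I-A beta chain, stood at 30.4, 10.9, 29.9 and 20.6 CPM in cKO replicates 1 to 4, against 28.6, 35.1, 42.3 and 23.1 CPM in WT replicates 1 to 4 (log2 fold change -0.49 ± 0.33 (SE), 95% interval -1.25 to 0.28, edgeR adjusted p = 0.901). H2-Eb1, the I-E beta chain, stood at 38.8, 20.6, 31.3 and 29.2 CPM in cKO replicates 1 to 4, against 37.7, 40.1, 50.01 and 25.97 CPM in WT replicates 1 to 4 (log2 fold change -0.36 ± 0.22 (SE), 95% interval -0.85 to 0.13, edgeR adjusted p = 0.895). As with C1q, cKO replicate 2 was lowest for all 4, and WT replicate 3 was highest for all but H2-Aa. Class II genes share a promoter module in which an X box is followed by a Y box that contains an inverted CCAAT sequence, and CIITA is recruited to it. The windows of H2-Aa and H2-Eb1 are shown for that reason, with CTGATTGG (the Y box letters) and GCAAC (letters within the X box) in capitals where found, on either strand.
H2-Aa, chr17:34287774-34288073, minus strand: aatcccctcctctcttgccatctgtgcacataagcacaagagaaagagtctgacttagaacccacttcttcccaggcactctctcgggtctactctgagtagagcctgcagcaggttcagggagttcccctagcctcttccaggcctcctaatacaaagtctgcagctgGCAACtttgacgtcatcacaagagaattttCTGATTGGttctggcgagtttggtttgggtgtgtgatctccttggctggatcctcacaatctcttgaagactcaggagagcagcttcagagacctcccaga
H2-Eb1, chr17:34305617-34305916, plus strand: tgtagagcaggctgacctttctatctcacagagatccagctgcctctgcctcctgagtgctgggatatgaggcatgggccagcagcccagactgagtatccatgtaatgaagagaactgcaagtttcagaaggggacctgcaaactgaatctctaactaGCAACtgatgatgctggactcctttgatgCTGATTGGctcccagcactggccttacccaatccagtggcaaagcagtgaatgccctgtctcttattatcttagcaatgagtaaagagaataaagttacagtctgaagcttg
CTGATTGG starts 51 bases before the start site in H2-Aa and 62 bases before it in H2-Eb1, and GCAAC starts 81 and 91 bases before it in H2-Aa and H2-Eb1. Of the 37 genes, 26 have a window. H2-Ab1 is not among them, so its promoter was not searched. CTGATTGG occurs in no window of the other genes among these 26, and in 4.1% of all windows, counting both strands. The shorter ATTGG (or CCAAT on the other strand), which lies inside CTGATTGG, occurs in 37.4% of all windows and in 11 of the 26 immune genes with a window. GCAAC (or GTTGC on the other strand) is common, at 35.2% of all windows and in 10 of the 26 immune genes. These 26 genes have 31 windows, of which 12 hold ATTGG and 10 hold GCAAC.

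**Figure D3:**
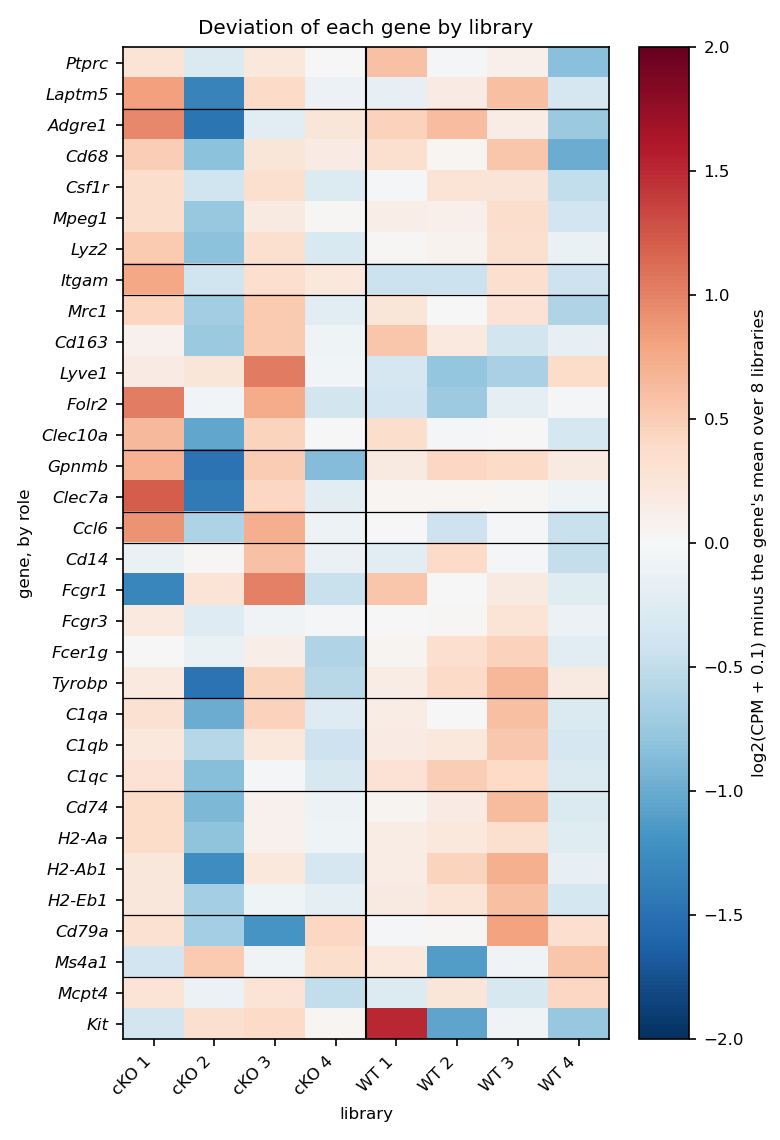
Deviation of log2(CPM + 0.1) from each gene's mean over the 8 libraries, for the 32 tested immune genes (rows, by role) in each library (columns, cKO left and WT right); red is above the mean and blue below. The column of cKO replicate 2 is blue for most macrophage, C1q and class II genes, and Kit is high in WT replicate 1.

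Several libraries were low or high across many of these genes at once. Of the 28 tested macrophage, C1q, class II and general white blood cell genes, 19 had their lowest value in cKO replicate 2, and for 14 the lowest 2 libraries were cKO replicate 2 and WT replicate 4. Averaged over the macrophage identity genes, the deviation from the mean of all libraries (log2) was -0.84 in cKO replicate 2 and -0.54 in WT replicate 4, against 0.53 in cKO replicate 1 and 0.33 in WT replicate 3. Class II genes deviated by -0.91 in cKO replicate 2 and by 0.56 in WT replicate 3. The median coefficient of variation over the 32 genes was 34.5% in cKO and 25.7% in WT, and 24 of the 32 had the larger SD in cKO. Without cKO replicate 2 the median log2 fold change of the tested genes was 0.07, and without cKO replicate 1 it was -0.18. Leaving out 1 library turned the sign of the log2 fold change for 19 of the 32 genes, most of them near 0 with all libraries in. The 13 others were Itgam, Lyve1, Folr2 and Ccl6, which stayed positive, and Gpnmb, Fcer1g, Tyrobp, C1qb, C1qc, Cd74, H2-Ab1, H2-Eb1 and Cd79a, which stayed negative, without a call in any of these fits.

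Markers of other cells moved with these libraries in part. The library cKO replicate 2 was also the shallowest, with 10713043 counts. Summed fibroblast markers (5 of 5 tested) ran over 302 to 585 CPM in cKO and 319 to 517 CPM in WT, with cKO replicate 2 lowest and cKO replicate 1 highest. Summed endothelial markers (5 of 5 tested) ran over 414 to 493 CPM in cKO and 402 to 635 CPM in WT, with WT replicate 3 highest. Red blood cell genes (5 of 5 tested) ran over 577 to 922 CPM in cKO and 557 to 1022 CPM in WT, also highest in WT replicate 3. Skeletal muscle genes (8 of 8 tested) ran over 128 to 9602 CPM in cKO, highest in replicate 1, and 35.2 to 7519 CPM in WT, highest in replicate 4. Summed adipocyte markers (7 of 7 tested) ran over 11424 to 15504 CPM in cKO and 12650 to 14258 CPM in WT. For these, cKO replicate 1 was the lowest and cKO replicate 2 the highest library. None of these markers is at 0 in either group, and their part in the immune levels was not tested.

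Within the libraries, the balance between immune genes was set out as ratios to the summed CPM of the 5 macrophage identity genes, chosen after the values had been seen and given with no test. The class II sum over the macrophage sum was 2.42, 2.49, 2.397 and 2.801 in cKO replicates 1 to 4, against 2.82, 2.901, 3.29 and 2.804 in WT replicates 1 to 4. All cKO ratios were below all WT ratios, by a narrow margin at cKO replicate 4. The C1q ratio was 0.459, 0.511, 0.528 and 0.482 in cKO replicates 1 to 4, against 0.586, 0.566, 0.619 and 0.535 in WT replicates 1 to 4, and here too the groups did not overlap. The chemokine ratio, which is mostly Ccl6, was 0.115, 0.0977, 0.125 and 0.0924 in cKO replicates 1 to 4, against 0.0816, 0.0603, 0.0752 and 0.0897 in WT replicates 1 to 4, with cKO above WT. These were 3 of 10 role groups, and 0.68% of all genes tested had ratios to the same sum that did not overlap. That share is of single genes, most of them not immune, so it does not give the share that sums of immune genes would reach, and nothing is read from the 3 of 10. The separation depended on the denominator: against Csf1r alone, the C1q sum stayed apart and the other 2 overlapped, against Lyz2 alone only the chemokines stayed apart, and against the identity genes without Lyz2 only class II did.

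**Figure D4:**
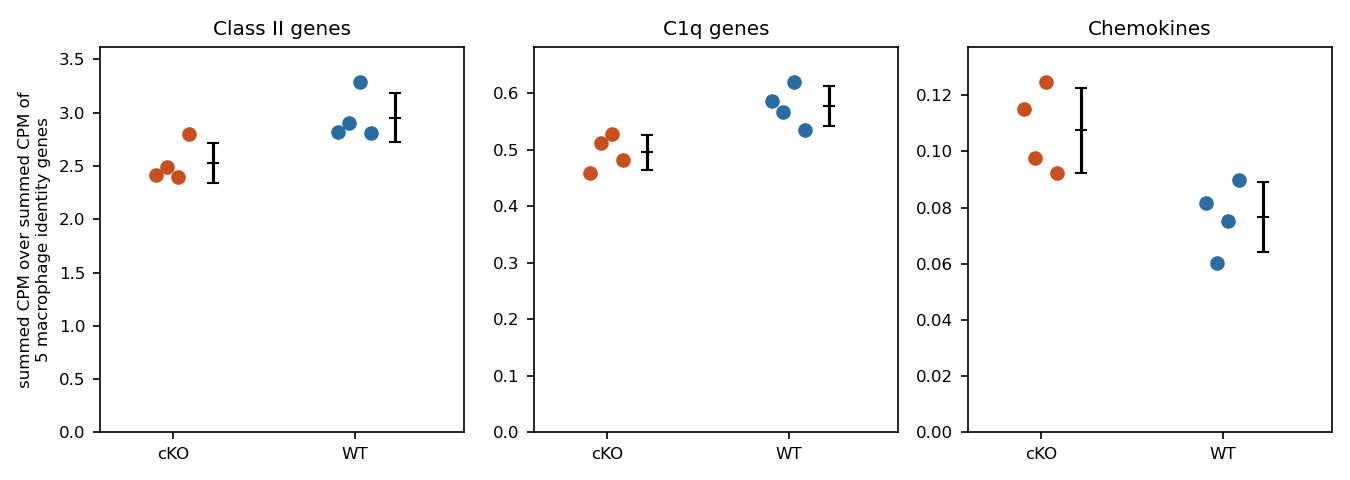
Summed CPM of the 4 class II genes, 3 C1q genes and 2 chemokines over the summed CPM of 5 macrophage identity genes; points are libraries (cKO left, WT right), and the bar beside them is the mean with its SD (n = 4 each). The cKO points lie below the WT points for class II and C1q and above them for the chemokines, with other denominators giving overlap as stated in the text.

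Lymphocyte genes were near the limit of detection. Ms4a1, which encodes the B cell antigen CD20, stood at 0.542, 1.098, 0.698 and 0.965 CPM in cKO replicates 1 to 4, against 0.871, 0.286, 0.695 and 1.13 CPM in WT replicates 1 to 4 (log2 fold change 0.12, 95% interval -0.87 to 1.11). Cd79a, a chain of the B cell receptor, averaged 0.625 ± 0.351 CPM in cKO and 0.899 ± 0.279 CPM in WT (SD, n = 4 each, log2 fold change -0.51, 95% interval -1.54 to 0.52). Cd3e, a chain of the T cell receptor complex, was not tested, with 27 counts in all in cKO and 42 in WT, of which 35 counts came from WT replicate 1. Nkg7, a granule protein of natural killer and cytotoxic T cells, was not tested, with 15 counts in all in cKO and 41 in WT, of which 26 came from WT replicate 1. Both genes were also highest there in CPM, with 1.09 CPM for Cd3e and 0.809 CPM for Nkg7. The further T cell genes, tested or not, deviated there from the mean of all libraries by 0.75 (log2) on average and the natural killer genes by 0.76, the highest of the 8 libraries for both lists. The 0 counts of Nkg7 in cKO replicate 2 allow up to 0.2996 CPM. No difference between groups was detectable for these genes at this depth.

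The 2 mast cell genes behaved differently from each other. Mcpt4, a chymase of connective tissue mast cells, stood at 0.949, 0.699, 0.952 and 0.5196 CPM in cKO replicates 1 to 4, against 0.622, 0.929, 0.596 and 1.06 CPM in WT replicates 1 to 4 (log2 fold change 0.00 ± 0.37 (SE), 95% interval -0.79 to 0.80, edgeR adjusted p = 0.999). Kit, the receptor for stem cell factor on mast cells and on other cell types such as progenitors and melanocytes, stood at 18.8, 30.8, 32.2 and 25.4 CPM in cKO replicates 1 to 4, against 69.9, 11.8, 23.3 and 14.5 CPM in WT replicates 1 to 4 (log2 fold change -0.17 ± 0.61 (SE), 95% interval -1.64 to 1.30, edgeR adjusted p = 0.983). WT replicate 1 was far above the 7 other libraries. Without it, the log2 fold change turned to 0.69 with an unadjusted p of 0.0264 (edgeR adjusted p = 0.724). Hdc, the histamine-forming enzyme, stood at 1.83, 4.89, 4.13 and 2.82 CPM in cKO replicates 1 to 4, against 4.696, 3.22, 4.67 and 2.79 CPM in WT replicates 1 to 4, so WT replicate 1 was among the higher libraries but not apart. Cpa3, the mast cell carboxypeptidase, stood at 0.6098, 0.899, 0.444 and 0.594 CPM in cKO replicates 1 to 4, against 0.684, 0.929, 0.397 and 0.226 CPM in WT replicates 1 to 4. Neither it nor Mcpt4 set WT replicate 1 apart.

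**Figure D5:**
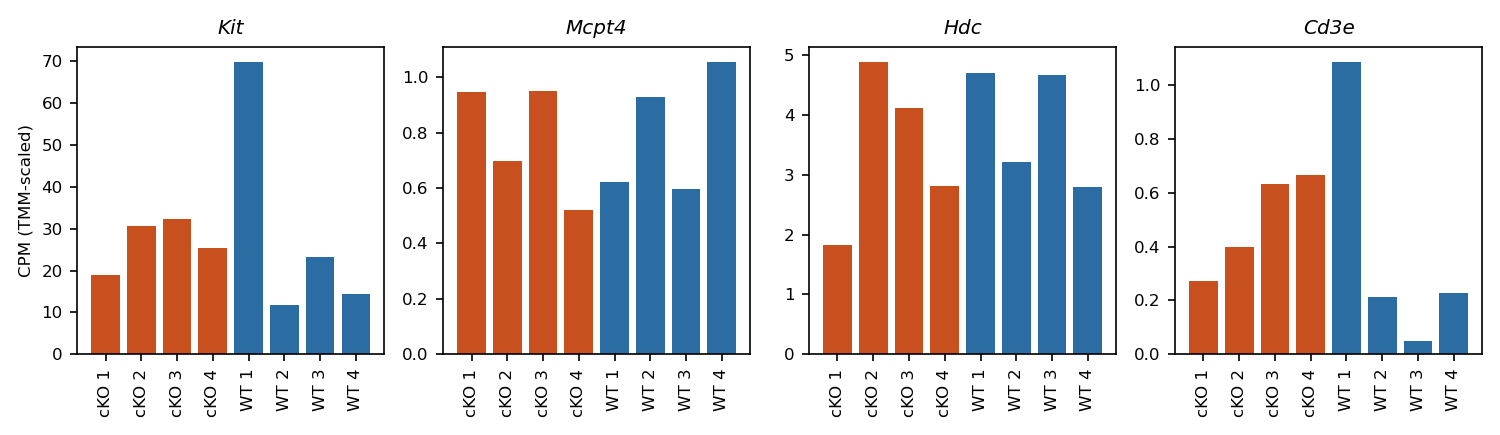
CPM of Kit, Mcpt4, Hdc and Cd3e in each library (bars, cKO left and WT right, each panel on its own linear axis from 0). Kit reaches 69.9 CPM in WT replicate 1 and stays at 11.8 to 32.2 CPM in the 7 others, Cd3e is also highest there, and Mcpt4 and Hdc do not set that library apart.

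Other genes of the same cells were examined in 12 lists of 136 genes, of which 60 passed the count filter. By edgeR 0 were called over all genes (smallest adjusted p = 0.882), 3 had an unadjusted p under 0.05 (5%, near the 5.6% of all genes), DESeq2 and limma-voom called 0, and for 0 of them did the groups fail to overlap. The log2 fold change was positive for 26 and negative for 34, and the median was -0.03.

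Among macrophage regulators and receptors (20 of 22 tested) 10 values were positive and 10 negative. Maf, a transcription factor of macrophages, averaged 19.97 ± 6.35 CPM in cKO and 19.5 ± 6.15 CPM in WT (SD, n = 4 each, log2 fold change 0.04). Csf2rb, the shared beta chain of the GM-CSF receptor, stood at 7.11, 5.89, 10.1 and 6.46 CPM in cKO replicates 1 to 4, against 10.01, 11.1, 12.5 and 7.47 CPM in WT replicates 1 to 4 (log2 fold change -0.47 ± 0.21 (SE), 95% interval -0.92 to -0.02, edgeR adjusted p = 0.884, unadjusted p = 0.0412). It was 1 of the 3 genes with the smallest p, with 3 cKO libraries below all WT libraries. Among further resident macrophage genes, 4 of 6 were positive. Stab1, a scavenger receptor shared with endothelium, averaged 30.4 ± 5.44 CPM in cKO and 36.6 ± 7.79 CPM in WT, and Gas6, a bridge between dying cells and their receptors, averaged 30.2 ± 6.38 CPM in cKO and 29.5 ± 4.46 CPM in WT.

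Further genes tied to lipid-handling macrophages, not all of which act on lipid, had negative log2 fold changes in 9 of 11, with a median of -0.09. Apoe, which carries lipid and is also made by adipocytes, stood at 377, 252, 491 and 359 CPM in cKO replicates 1 to 4, against 415, 534, 578 and 491 CPM in WT replicates 1 to 4 (log2 fold change -0.45 ± 0.18 (SE), 95% interval -0.84 to -0.05, edgeR adjusted p = 0.882, unadjusted p = 0.0296). The cKO values overlapped WT through cKO replicate 3. The lysosomal proteases Ctsb and Ctsd, which most cells make, averaged 1222 ± 45.1 CPM in cKO and 1251 ± 144 CPM in WT for Ctsb and 1180.4 ± 71.3 CPM in cKO and 1196 ± 187 CPM in WT for Ctsd. Among class II processing and costimulation genes 5 of 10 were tested. Ciita, the coactivator of class II genes, averaged 2.39 ± 0.742 CPM in cKO and 2.36 ± 0.959 CPM in WT (log2 fold change 0.01, 95% interval -0.73 to 0.76), H2-DMa, which loads peptide, averaged 3.25 ± 0.712 CPM in cKO and 3.18 ± 0.621 CPM in WT, and H2-DMb1, its partner chain, averaged 2.52 ± 0.371 CPM in cKO and 3.11 ± 0.563 CPM in WT. Cd40, a costimulatory receptor, stood at 0.474, 0.499, 0.1904 and 0.742 CPM in cKO replicates 1 to 4, against 0.653, 0.857, 1.19 and 1.96 CPM in WT replicates 1 to 4 (log2 fold change -1.27 ± 0.50 (SE), 95% interval -2.36 to -0.17, edgeR adjusted p = 0.882, unadjusted p = 0.0265), a low level at which cKO replicate 4 lay within the WT range.

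Inflammatory cytokines were scarce, with 3 of 14 tested. Tgfb1 averaged 13.04 ± 2.05 CPM in cKO and 14.8 ± 2.78 CPM in WT, and Ccl9 averaged 4.75 ± 1.61 CPM in cKO and 3.62 ± 1.26 CPM in WT (SD, n = 4 each), while Tnf, Il1b and Il6 did not pass the count filter. Of the dendritic cell genes 4 of 9 were tested. Zbtb46, which endothelium also expresses, averaged 21.7 ± 1.13 CPM in cKO and 22.3 ± 2.89 CPM in WT, and Clec9a averaged 1.96 ± 0.961 CPM in cKO and 2.21 ± 0.4204 CPM in WT. For B cells 3 of 10 were tested, with Ighm, the heavy chain of immunoglobulin M, at 17.3, 4.69, 16.2 and 14.4 CPM in cKO replicates 1 to 4, against 9.86, 10.9, 13.3 and 12 CPM in WT replicates 1 to 4 (log2 fold change 0.20). It was lowest in cKO replicate 2, as were most macrophage genes. Igkc, the kappa light chain, averaged 1.16 ± 0.572 CPM in cKO and 2.05 ± 0.977 CPM in WT. For T cells 3 of 14 were tested, led by Cd247 with 1.23 ± 0.441 CPM in cKO and 1.27 ± 0.633 CPM in WT and Trac with 0.894 ± 0.5802 CPM in cKO and 0.766 ± 0.632 CPM in WT. For natural killer cells 0 of 9 were tested. Mast cell genes had 3 of 9 tested, with Hpgds at 2.02 ± 0.807 CPM in cKO and 2.1 ± 0.825 CPM in WT. For neutrophils 1 of 10 was tested, Csf3r with 0.927 ± 0.836 CPM in cKO and 0.9301 ± 0.153 CPM in WT. In the list for eosinophils and group 2 innate lymphoid cells the 1 gene tested was Il1rl1, the interleukin-33 receptor of the lymphoid cells, with 1.05 ± 0.535 CPM in cKO and 1.12 ± 0.4501 CPM in WT, and the eosinophil genes Siglecf, Ccr3, Prg2, Epx and Il5ra did not pass the count filter. The genes Il10, Ngp and Epx had 0 counts in every library.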

How the data were processed

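The authors deposited 1 table of estimated counts (54385 Ensembl genes, 8 libraries). StringTie, Salmon, edgeR and the build GRCm38 are named in the submitters' processing notes; their versions, the strand setting and the annotation release are not given here. Such counts divide reads between similar genes, so copies and overlapping genes are uncertain. Symbols came from GENCODE M21 (GRCm38) and matched 99.5% of rows; promoter windows came from RefSeq.

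Counts were rounded, filtered with filterByExpr, scaled by TMM and tested by quasi-likelihood in edgeR, robust setting (versions were edgeR 4.0.16, limma 3.58.1, DESeq2 1.42.0, R 4.3.3, Python 3.11.15), group being the only term, at a Benjamini-Hochberg adjusted p of 0.05. CPM are TMM-scaled. No 2 libraries agreed within sampling noise (lowest chi-square over its degrees of freedom 14.5). The labels do not tie libraries to separate animals, so each p-value covers only the spread among the libraries, which may be technical.

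Every one of the 37 genes is accounted for. Values per library are given for the most abundant gene of each role, for any with an unadjusted p under 0.05, and for others chosen after seeing values; from the wider lists, for up to 2 most abundant genes each and those with such a p (1 gene that the rule names is not reported here). Cpa3, Ciita, Hdc, Il10, Ngp and Epx, and the genes said not to pass the filter, were also chosen after seeing values. Genes and lists were chosen with earlier results of these data known.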

Additional observations from a re-analysis of the deposited data

Results flagged for a closer look

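Among 98 groups of 4 libraries examined for a single library far from the rest, 4 held one, and chance gives about 1 in 20 groups. Itgam in WT replicate 3 stood at 3.23 CPM, above the 3 other WT libraries, and with it the sum of both integrin chains at 3.82 CPM. Clec7a in WT replicate 4 stood at 0.906 CPM, below the other WT libraries, which differ very little (0.993 to 1 CPM). These values rest on 78 counts in all in WT. Cd3e in WT replicate 1 stood at 1.09 CPM, from 35 counts, against at most 0.226 CPM in the other WT libraries.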

How the results depend on the processing

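The count of called immune genes was 0 under each of the 17 alternatives, and so was that of the wider lists. Over all genes, edgeR called 10, the DESeq2 Wald test 46, edgeR with no filter 93 and edgeR with WT replicate 4 moved to cKO 1. With 1 library left out, the count over all genes ran from 8 to 14 and the median log2 fold change of the immune genes from -0.18 to 0.07, against -0.06 with all libraries. It was -0.25 with WT replicate 4 moved to cKO. For Kit, leaving out 1 library gave -0.43 (without WT replicate 2) to 0.69 (without WT replicate 1, edgeR adjusted p = 0.724), against -0.17. With the replicate block, 0 immune genes and 7 genes in all were called. Same-number libraries had correlations of their deviations from -0.46 to 0.41, and 0 of 4 cKO libraries correlated best with their own number. These correlations run over all genes tested, the variable skeletal muscle genes included, so they cannot tell whether the numbers mark pairs. Of 540 log2 fold changes recomputed for single immune genes, 0 were called (smallest adjusted p 0.539), and Kit was the 1 that turned its direction at an unadjusted p under 0.05. Depth limits the 9 genes under 1 CPM in both groups. The summing of neighbouring genes was added after seeing the data.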

Other observations

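Close relatives of the described genes differed between groups by less than the SD within cKO. Mgl2, the neighbour and paralog of Clec10a, averaged 4.72 ± 1.62 CPM in cKO and 5.02 ± 0.751 CPM in WT. Fcgr2b, the inhibitory Fc receptor that shares sequence with Fcgr3, averaged 5.60 ± 1.18 CPM in cKO and 5.16 ± 0.329 CPM in WT. Lyz1, the lysozyme of Paneth cells, averaged 1.71 ± 0.751 CPM in cKO and 1.15 ± 0.558 CPM in WT (SD, n = 4 each), far under Lyz2.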
